A study of Hydra vulgaris with 36 samples.

Results

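The genes described here are 26 of the 12410 genes in a count table from whole Hydra vulgaris, a freshwater cnidarian polyp. They were chosen on the measured values themselves, as genes that were higher in animals treated with the inhibitor DAPT when treatment ended and that stood much closer to the control animals 6 h after the drug was removed. For the choice, CPM (counts per 1000000 counts of the library) of each library were put on a log2 scale with 0.5 CPM added, and the median over all genes of that library was subtracted. The difference between the mean of the 6 DAPT and the mean of the 6 DMSO libraries on this centred log2 scale is called D0, D3 and D6 at 0 h, 3 h and 6 h. A member had a mean of at least 2 CPM over the 36 libraries, a D0 of 0.7 or higher, all 6 DAPT libraries of 0 h above all 6 DMSO libraries of 0 h, and a D6 below 0.7 and below 50% of D0. The conditions at 0 h and on the mean level were met by 125 genes, of which 26 (20.8%) also met those at 6 h and 99 did not.

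Basel polyps went without food for 24 h. They then spent 48 h in medium with 20 µM DAPT and 1% DMSO, or with 1% DMSO alone as the control, with fresh solution every 12 h. Samples were taken at once (0 h), or 3 h or 6 h after the DAPT medium had been exchanged for medium with 1% DMSO, so the solvent was present in all 6 groups at all times. Each group held 6 biological replicates of about 25 pooled whole animals, and nothing in the labels ties a replicate to a separate culture, so p-values measure the spread between these samples. The series compared treated with control animals to find genes controlled by Notch. The columns of the table carry the letters S and P, which were read as DMSO and DAPT because each letter occurs in only that name, and the opposite reading would mirror every direction given here.

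DAPT blocks gamma-secretase, the membrane protease that cuts the activated Notch receptor and so frees its intracellular part to enter the nucleus. There this part joins the DNA-binding protein CSL and switches on target genes, and well-known targets in animals are the Hes family repressors, so that loss of Notch signalling can lower some transcripts and raise others. In Hydra, Notch signalling is known for its part in the differentiation of nematocytes, the stinging cells, and in forming the boundary at which a bud separates from its parent. Gamma-secretase also cuts other membrane proteins. The gene identifiers are those of an assembly and are not paired with gene names: 0 of them matched the RefSeq gene table of Hydra vulgaris, so no function, cell type or pathway is assigned to any member. Apart from 2 members named by identifier, members are given by their rank in mean CPM, from 1 for the most abundant to 26 for the least.

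At the end of treatment the members stood at a median D0 of 1.05, with a range from 0.73 to 2.34, and at 6 h at a median D6 of 0.32, with a range from -0.10 to 0.62. These values chose the members and are given as a description only. The count test described below called 24 of the 26 higher in DAPT at 0 h, where it called 1.89% of all tested genes, and 0 of 26 at 6 h, where it called 1.13%, and at an unadjusted p under 0.05 it was also 0 of 26 at 6 h, against 3.5% of all tested genes. All DAPT libraries of 6 h lay above all DMSO libraries in 0 of 26 members and in 0.816% of all tested genes. Nothing is read from the members' counts, since the rule used both times. D6 was above 0 in 23 of the 26 members and below 0 in 3. Over all tested genes D6 was above 0 in 55.9%, with a median of 0.04. In 23 members the mean level in DAPT at 6 h lay within the range of the 6 control libraries of that time. This count was not taken over all tested genes and the limits on D6 favour it, so nothing is read from it either.

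Some members met the conditions narrowly. The lowest D0 of a member was 0.73, and the highest D0 of a gene that missed only this condition was 0.70 (0.6961 before rounding). The largest D6 relative to D0 was 47.2% among members and the smallest among the 11 genes that missed only this condition was 50.6%. The smallest gap between the lowest DAPT and the highest DMSO library at 0 h was 0.0049 on the centred log2 scale in a member, and 33 genes missed only this condition, the nearest by -0.01. The largest D6 of a member was 0.62, with the nearest gene outside at 0.74. The least abundant member had a mean of 2.89 CPM and the nearest gene outside 1.70 CPM.

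**Figure D1:**
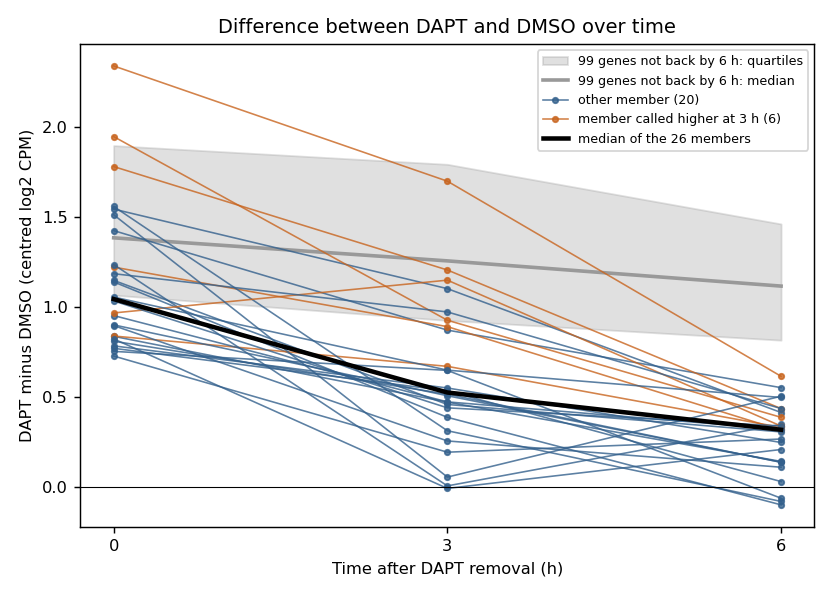
DAPT minus DMSO on the centred log2 CPM scale (y axis) at 0 h, 3 h and 6 h after removal (x axis) for each of the 26 members, with their median in black and the median and quartiles of the 99 genes that met the 0 h but not the 6 h conditions in grey. The member median went from 1.05 through 0.53 to 0.32, and that of the 99 genes from 1.39 through 1.26 to 1.12.

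The libraries of 3 h entered the choice only through the mean level over all 36 libraries, and give the difference midway. Most members were still higher in the DAPT animals at 3 h, but by less than at 0 h. They were chosen for a large D0, which by itself favours a smaller D3, so this drop is a description. The number of members that passed a test gene by gene depended on the test and the libraries. The edgeR quasi-likelihood F test, fitted over all 36 libraries and 12253 genes, called 6 of the 26 members higher in DAPT at a Benjamini-Hochberg adjusted p under 0.05. It called 1.61% of all tested genes higher. Of the 26 members 0 were called lower, where 4.85% of all genes were, and at an unadjusted p under 0.05 the counts were 18 higher, against 5.53% of all genes, and 0 lower, against 9.62%. The log2 fold change was above 0 in 25 members, against 55.7% of all genes. All 26 passed the filter on low counts. In whole animals, fewer cells of a type and less RNA per cell cannot be told apart, and this holds for each level given here.

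The median log2 fold change of the members at 3 h was 0.60 in the edgeR fit, beside 0.04 over all tested genes, and the median D3 was 0.53 with quartiles at 0.40 and 0.89, beside 0.06 over all tested genes. D3 lay between D0 and D6 in 21 of the 26 members. Relative to D0, the median D3 was 58.8%, and 15 members kept more than 50% of their D0. D0 itself was used in the choice, which favours shares below 100%, so these shares are a description too. The count of 6 called members was 10 without DAPT 3 h replicate 2 and 3 without replicate number 1, left out at all times. DESeq2 called 11 members higher, and at an edgeR adjusted p under 0.01 the count was 2. The edgeR fit takes the spread of each gene from all 36 libraries, and those of 0 h and 6 h were used to choose the members. Fitted on the 3 h libraries alone, it called 4 members higher, those of rank 2, 6, 15 and 20.

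**Figure D2:**
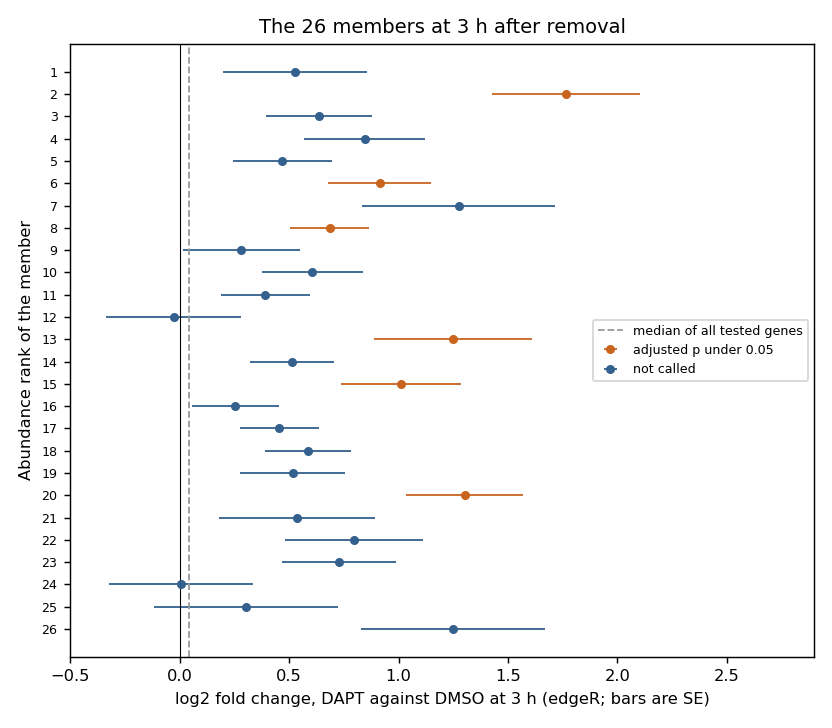
Log2 fold change of DAPT against DMSO at 3 h with its standard error (x axis, edgeR) for each member in order of abundance rank (y axis). The 6 called members lie between 0.68 and 1.77, and the dashed line marks the median of all tested genes at 0.04.

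The 6 members called at 3 h were those of abundance rank 2, 6, 8, 13, 15 and 20, with fold changes from 1.61 to 3.40 and adjusted p from 0.000440 to 0.0277. TRINITY_DN19270_c0_g1, of rank 2, had the smallest p at 3 h. Its level at 0 h was 6.64, 15.7 and 23.3 CPM in the lowest, median and highest DMSO library, and 42.7, 85.6 and 97.2 CPM in DAPT. The groups did not overlap at 0 h, which the rule required. At 3 h it was 13.4, 16.1 and 23.8 CPM in DMSO and 32.03, 59.2 and 103 CPM in DAPT, and the groups did not overlap. The gene is named for its p at 3 h, so its separation there is given as a description. Its fold change at 3 h was 3.40 (edgeR: log2 fold change 1.77 with SE 0.34 and adjusted p = 0.000440). At 6 h it was 13.9, 18.9 and 46.9 CPM in DMSO and 15.7, 32.1 and 58.5 CPM in DAPT, and the groups overlapped. The highest DMSO library, at 46.9 CPM, was replicate 4. The other 5 DMSO libraries lay at 13.9 to 25.2 CPM, and 4 of the 6 DAPT libraries were above all of these. DAPT replicates 2 and 3, at 15.7 and 19.7 CPM, lay within that range. Without DMSO 6 h replicate 4 its D6 was 0.84 in place of 0.62, and the gene no longer met the rule. Its mean in DMSO was 15.3 ± 5.74 CPM (SD, n = 6) at 0 h, 18.1 ± 4.37 at 3 h and 23.3 ± 12.2 at 6 h. Its mean in DAPT was 76.0 ± 24.2, 61.5 ± 27.4 and 36.02 ± 18.6 CPM. This gene had both the largest D0 and the largest D6 of the members, 2.34 and 0.62.

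The member of rank 20 was the other one whose DAPT libraries all lay above the DMSO libraries at 3 h, a separation found in 2 of 26 members and in 1.18% of all tested genes. Without DAPT 3 h replicate 2 it was found in 7 of the 26 members and in 1.58% of all tested genes. It was scarce, at 1.99, 2.39 and 3.33 CPM in DMSO at 3 h and 3.84, 5.67 and 8.99 CPM in DAPT (edgeR: log2 fold change 1.30 with SE 0.27 and adjusted p = 0.000956). It alone had a D3 above its D0, 1.15 against 0.97. At 6 h it stood at 2.85, 3.57 and 6.81 CPM in DMSO and 2.71, 5.01 and 8.84 CPM in DAPT, so its groups overlapped, although the mean in DAPT, 5.09 ± 2.11 CPM, was little below the 6.05 ± 2.10 CPM of 3 h. Without DMSO 6 h replicate 4, the library at 6.81 CPM, 4 DAPT libraries were above the other 5 of DMSO, D6 was 0.50 in place of 0.34, and this gene no longer met the rule either. The smaller D6 of this gene went with a higher control mean, 3.98 ± 1.48 CPM at 6 h against 2.45 ± 0.467 CPM at 3 h.

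At 3 h the member of rank 6 stood at 8.60, 10.9 and 13.8 CPM in DMSO and at 11.1, 23.1 and 26.01 CPM in DAPT (edgeR: log2 fold change 0.91 with SE 0.24 and adjusted p = 0.0110). Rank 8 stood at 8.63, 10.4 and 13.1 CPM and at 11.1, 16.8 and 24.8 CPM (edgeR: log2 fold change 0.68 with SE 0.18 and adjusted p = 0.0136). In both genes 5 of 6 DAPT libraries were above the highest DMSO library. Among the scarcer ones, that of rank 13 stood at 1.53, 4.08 and 6.26 CPM in DMSO at 3 h and at 5.12, 7.16 and 17.6 CPM in DAPT (edgeR: log2 fold change 1.25 with SE 0.36 and adjusted p = 0.0277). That of rank 15 stood at 3.58, 3.98 and 5.92 CPM and at 4.85, 8.41 and 13.7 CPM (edgeR: log2 fold change 1.01 with SE 0.28 and adjusted p = 0.0177). In these 2 genes the lowest DAPT libraries lay within the range of the DMSO libraries. Among the 6 fits that each leave out 1 replicate number, the members of rank 2 and 20 were called in 6, that of rank 6 in 5, that of rank 8 in 4, that of rank 13 in 3 and that of rank 15 in 2.

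**Figure D3:**
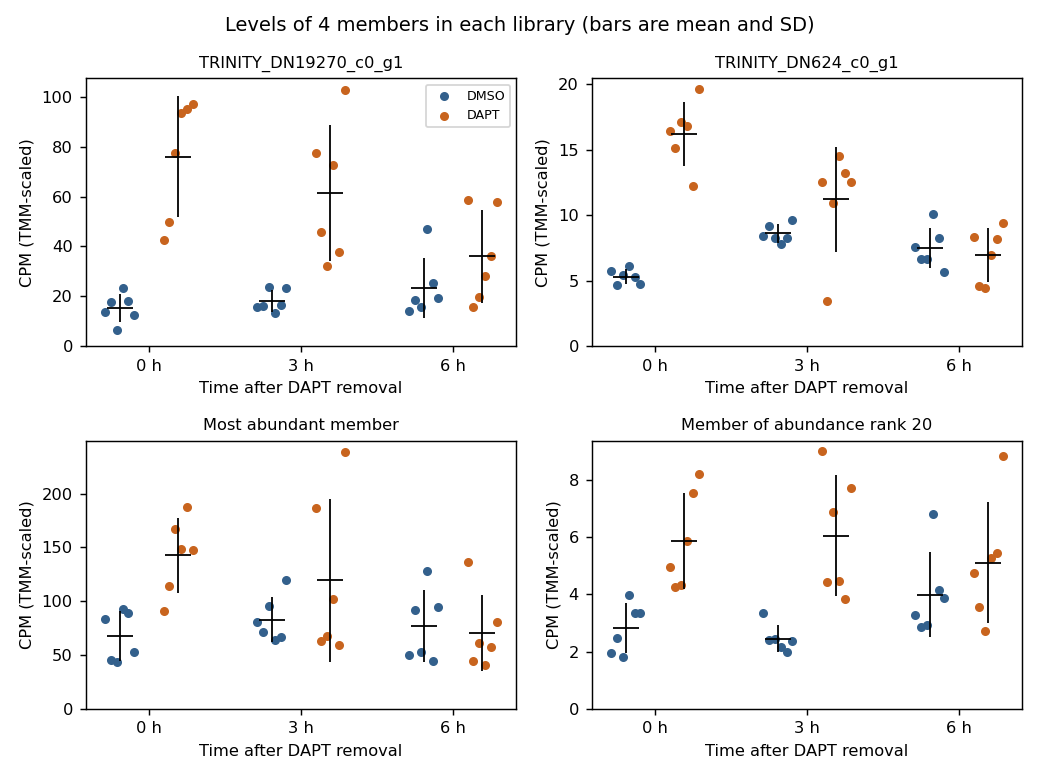
CPM after TMM scaling (y axis, starting at 0) in each of the 36 libraries at 0 h, 3 h and 6 h (x axis) for TRINITY_DN19270_c0_g1, TRINITY_DN624_c0_g1, the most abundant member and the member of abundance rank 20; points are libraries and bars the mean and SD of 6. In TRINITY_DN624_c0_g1 a single DAPT library of 3 h lies at 3.43 CPM, below the other 5 at 10.9 to 14.5 CPM.

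The other 20 members were not called at 3 h. Their log2 fold changes ran from -0.03 to 1.27, their standard errors from 0.18 to 0.44 and their edgeR adjusted p from 0.0615 to 1.000 (0.9998 before rounding), and 12 of them had an unadjusted p under 0.05. A p that misses the threshold does not show that a gene had reached the control level. An example is the member of rank 7, which stood at 5.12, 8.22 and 12.5 CPM in DMSO and at 6.73, 20.7 and 38.6 CPM in DAPT at 3 h (edgeR: log2 fold change 1.27 with SE 0.44 and adjusted p = 0.0848). Its log2 fold change was larger than those of 4 called members, with the largest standard error of all 26.

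TRINITY_DN624_c0_g1, of rank 11, had the largest difference between D0 and D6 after TRINITY_DN19270_c0_g1, 1.64 against 1.72. Its level at 0 h was 4.64, 5.33 and 6.13 CPM in DMSO and 12.2, 16.6 and 19.6 CPM in DAPT. At 3 h it was 7.78, 8.36 and 9.65 CPM in DMSO and 3.43, 12.6 and 14.5 CPM in DAPT. At that time 5 of the 6 DAPT libraries were above all DMSO libraries and DAPT replicate 2 was below all of them. The difference at 3 h was not called (edgeR: log2 fold change 0.39 with SE 0.21 and adjusted p = 0.383), and without DAPT 3 h replicate 2 it was (log2 fold change 0.57, edgeR adjusted p = 0.0238). At 6 h it was 5.69, 7.11 and 10.1 CPM in DMSO and 4.42, 7.56 and 9.39 CPM in DAPT. The groups overlapped, with DAPT replicates 2 and 3 below all DMSO libraries and DMSO replicate 4 above all DAPT libraries. Its D3 was 20.1% of its D0, a share undercut only by the members of rank 12, 24 and 25.

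In 3 members the DAPT and DMSO means of 3 h were nearly equal on the centred scale. That of rank 12 had a D3 of 0.01 and stood at 6.38, 9.30 and 14.9 CPM in DMSO and 5.92, 9.09 and 17.0 CPM in DAPT (edgeR: log2 fold change -0.03 with SE 0.31 and adjusted p = 0.992). That of rank 24 had a D3 of -0.01 and stood at 0.966, 4.41 and 6.43 CPM and at 1.01, 4.70 and 6.71 CPM (edgeR: log2 fold change 0.004 with SE 0.33 and adjusted p = 0.9998). That of rank 25 had a D3 of 0.06 and stood at 1.55, 2.43 and 3.89 CPM and at 0.404, 3.16 and 6.85 CPM (edgeR: log2 fold change 0.30 with SE 0.42 and adjusted p = 0.844). Its DAPT replicates 2 and 3 were low, at 0.404 and 1.08 CPM. The members of rank 12, 24 and 25, with that of rank 16, were those whose D3 was below their D6. The expected counts behind the least abundant members were low, down to 2.00 reads in a library for the member of rank 25 and 2.30 for that of rank 24.

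The most abundant member stood at 43.3, 68.1 and 92.5 CPM in DMSO libraries of 0 h and 90.7, 148 and 187 CPM in DAPT, so that its groups overlapped slightly as TMM-scaled CPM. The same held for 3 members in all, those of rank 1, 10 and 21, while on the centred scale, on which the rule worked, no groups overlapped. At 3 h it stood at 64.4, 75.9 and 120 CPM in DMSO and 58.8, 84.8 and 238 CPM in DAPT. The DAPT libraries of 3 h spanned the widest range of this gene in any group: replicates 1 and 6 were at 186 and 238 CPM and the other 4 between 58.8 and 102 CPM. The difference was not called (edgeR: log2 fold change 0.53 with SE 0.33 and adjusted p = 0.518). At 6 h its means were 76.9 ± 33.2 CPM in DMSO and 70.3 ± 35.4 CPM in DAPT.

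The smaller difference at 6 h went with lower levels in DAPT and higher levels in DMSO. On the centred log2 scale the mean of the DAPT libraries was lower at 6 h than at 0 h in 26 of 26 members. Over all tested genes it was lower in 45.3%, and the median change was 0.03, against -0.45 in the members. The mean of the DMSO libraries was higher at 6 h than at 0 h in 23 of 26 members. Over all tested genes it was higher in 56.9%, and the median change was 0.05, against 0.33 in the members. The drop in DAPT was larger than the rise in DMSO in 20 members. The change from 0 h to 3 h had a median of -0.31 in DAPT, with 22 members lower against 45.1% of all tested genes, and of 0.24 in DMSO, with 22 members higher against 56.5%. From 3 h to 6 h the DAPT mean was lower in 25 members, against 49.9% of all tested genes, with a median change of -0.31. The DMSO mean was higher in 14, against 56.5% of all tested genes, and lower in 12, with a median change of 0.03. The levels of 0 h and 6 h chose the members, so all these counts and changes are given as a description.

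TRINITY_DN624_c0_g1 shows both movements, with means in DMSO of 5.31 ± 0.575, 8.59 ± 0.688 and 7.48 ± 1.55 CPM at 0 h, 3 h and 6 h and in DAPT of 16.2 ± 2.45, 11.2 ± 3.98 and 6.97 ± 2.06 CPM. Its DMSO libraries of 3 h all lay above its DMSO libraries of 0 h. The member of rank 25 was the exception in which the control was lower at 6 h by the widest margin, with means of 1.85 ± 0.405 CPM at 0 h and 1.10 ± 0.547 CPM at 6 h in DMSO, and of 6.16 ± 1.68 and 2.00 ± 1.502 CPM in DAPT. Summed over the 26 members, the level was 259 ± 79.8 CPM in DMSO at 0 h and 639 ± 136 CPM in DAPT, 278 ± 51.5 and 452 ± 164 CPM at 3 h, and 272 ± 44.7 and 339 ± 112 CPM at 6 h. These sums are CPM of library totals, without TMM factors. The most abundant members weigh most in them: that of rank 1 had a mean of 95.7 CPM over all libraries, against a median of 7.18 CPM over the 26.

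**Figure D4:**
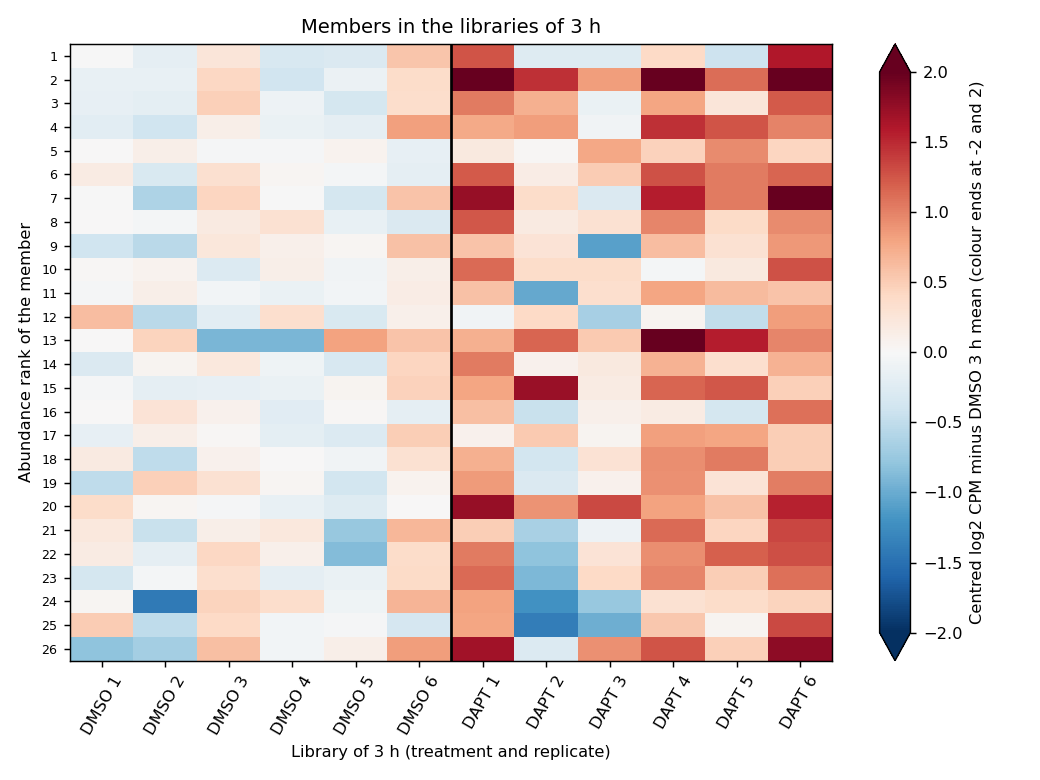
Centred log2 CPM minus the mean of the DMSO libraries of 3 h (colour, ending at -2 and 2) for each member by abundance rank (y axis) in the 6 DMSO and 6 DAPT libraries of 3 h (x axis). DAPT replicates 1, 4 and 6 are above the DMSO mean in 25, 25 and 26 of 26 members, and DAPT replicate 2 in 15.

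The DAPT libraries of 3 h differed widely from each other. The median over the members of the difference from the DMSO mean of 3 h was 0.83, 0.12, 0.18, 0.87, 0.49 and 1.06 in DAPT replicates 1 to 6, and -0.18 to 0.37 in the 6 DMSO libraries. Replicates 2 and 3 thus lay within the range of the control libraries and the other 4 above it. DAPT replicate 6 was the highest DAPT library of 3 h in 13 of 26 members and replicate 2 the lowest in 14, where an even spread over 6 libraries would give 4.33. Such counts were not taken over all tested genes, here or below, so they are not read as particular to the members. Nor are the members independent of each other. The SD over the 6 DAPT libraries of 3 h had a median of 0.57 over the members, against 0.41 over the 10405 genes with a mean of at least 2 CPM, both on the centred log2 scale. At 0 h the same medians in DAPT were 0.28 and 0.27, but there the members were chosen for groups that do not overlap.

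Single control libraries also carried many members at once. DMSO 6 h replicate 4 was the highest DMSO library of its time in 14 of 26 members, and DMSO 3 h replicate 6 in 14 as well, while DMSO 0 h replicate 3 was the lowest in 13. A high DMSO library at 6 h makes D6 smaller. Of the 26 members, 20 still met the 6 h conditions without DMSO 6 h replicate 4, whose TMM factor of 0.626 was the lowest of all libraries, and the median D6 was then 0.34. The 6 that no longer met them were TRINITY_DN19270_c0_g1 and the members of rank 4, 7, 20, 21 and 26, so 2 of the 6 members called at 3 h were among them. Chosen anew without that library, 22 genes met the rule. In this library the member of rank 3 stood at 85.5 CPM, against 26.4 to 42.1 CPM in the other 5.

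The number of genes that meet the rule depended most on replicate number 1. Without it at all times, 89 genes met the rule, all 26 members among them. Without any other replicate number, 28 to 35 genes did. Leaving out 1 library at a time, the number was 43 without DAPT 0 h replicate 1, 40 without DMSO 0 h replicate 1 and 22 to 36 without any of the other 22 libraries of 0 h and 6 h. With 5 libraries in a group, the condition that the groups do not overlap is easier to meet, whichever library of 0 h is left out. The cause of the larger number without replicate number 1 was not tested.

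The composition of the libraries differed between groups and between replicates. The 20 most abundant genes of a library took 31.0 ± 6.10% of its counts in DMSO at 0 h and 26.3 ± 2.49% in DAPT, 28.5 ± 5.34% and 27.5 ± 2.36% at 3 h, and 31.2 ± 3.22% and 29.1 ± 3.53% at 6 h. In 5 of the 6 groups the library with the largest such share was also the one in which the most members were at their lowest. These were DMSO 0 h replicate 3 with 40.9% and 13 members, DMSO 3 h replicate 2 with 39.0% and 9 members, DAPT 3 h replicate 2 with 32.2% and 14 members, DMSO 6 h replicate 1 with 35.1% and 10 members, and DAPT 6 h replicate 2 with 34.1% and 10 members. The exception was DAPT 0 h, where replicate 2 had the largest share, 29.7%, and 5 members at their lowest, against 9 in replicate 1. A large share did not always go with low members. DMSO 6 h replicate 4, with a share of 33.5%, had 14 members at their highest and 2 at their lowest. DAPT 3 h replicate 3 had 9 members at their lowest with a share of only 26.45%. The part of this composition in the results was not tested. Total counts per library ran from 5692414 to 15310480 over the series.

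**Figure D5:**
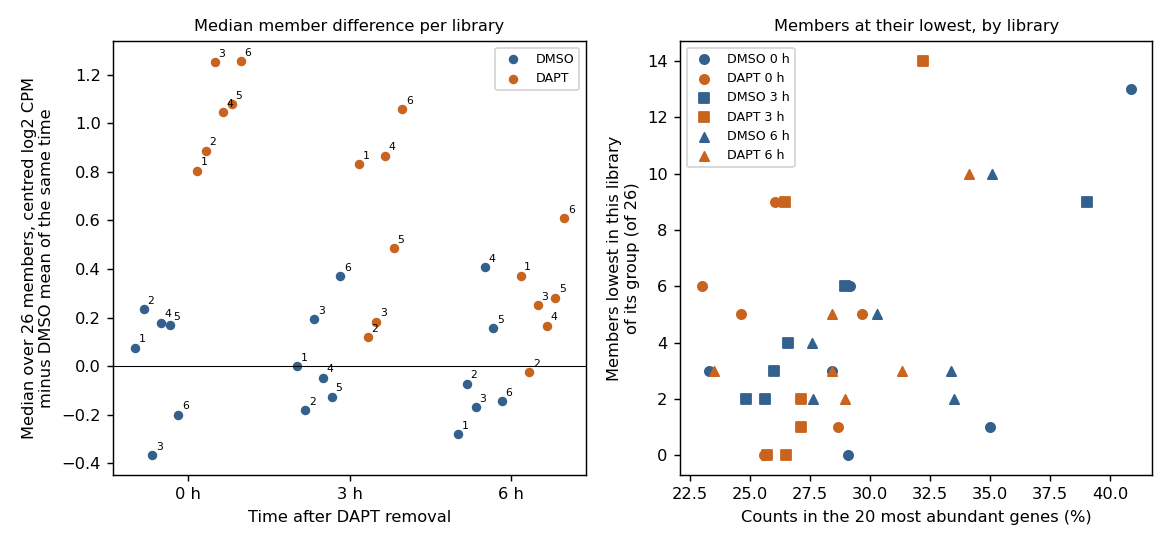
Left, the median over the 26 members of the centred log2 CPM minus the DMSO mean of the same time (y axis) in each library, labelled by replicate number, at 0 h, 3 h and 6 h (x axis). Right, the number of members that are lowest in a library among the 6 of its group (y axis) against the share of its counts in its 20 most abundant genes (x axis, %), with 14 members for DAPT 3 h replicate 2 at 32.2% and 13 for DMSO 0 h replicate 3 at 40.9%.

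Pairs of members tended to vary in the same direction between replicate libraries, most of them weakly. With the mean of each group removed, the Pearson correlation over the 36 libraries had a median of 0.32 over the 325 pairs of members, was above 0.5 in 86 pairs and below 0 in 65. The median was 0.10 among the 99 genes that met only the 0 h conditions and 0.01 among all genes with a mean of at least 2 CPM. These values are a description: the genes share the same libraries and their composition. The closest pair was TRINITY_DN19270_c0_g1 with the member of rank 7, at 0.88, followed by the members of rank 6 and 7, at 0.84.

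A few members ran against the rest. The member of rank 5 had a median correlation of -0.28 with the others, above 0 with 4 of 25, and its lowest was -0.79, with the member of rank 3. It stood at 12.4, 13.7 and 14.7 CPM in DMSO libraries of 3 h and 12.7, 18.1 and 25.9 CPM in DAPT (edgeR: log2 fold change 0.47 with SE 0.23 and adjusted p = 0.313). Rank 15 had a median correlation of -0.22 and was called at 3 h, as was that of rank 13, whose median correlation was 0.01. The 26 genes chosen by the rule therefore did not vary as a single unit between libraries.

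Beside the 99 genes that met the same 0 h conditions but not those at 6 h, the members were scarcer and differed less at 0 h. Their median mean level was 7.18 CPM against 17.2 CPM, with 7.01 CPM over all tested genes, and their median D0 was 1.05 against 1.39. D0 and D6 formed both groups, so the gap in D0 and the shares of D0 are a description. The limit of 0.7 on D6 bears on genes with a large D0, and 4 genes missed that condition alone. At 3 h, which neither set of conditions on the difference used, 89 of the 99 genes were called higher by edgeR's test, against 6 of the 26 members, and the median D3 was 1.26 against 0.53. As a share of D0, D3 had a median of 92.8% in the 99 genes and 58.8% in the members, and it exceeded 50% of D0 in 97 of the 99 and in 15 of the 26. All DAPT libraries of 3 h lay above all DMSO libraries in 66 of the 99 genes and in 2 of the 26, and without DAPT 3 h replicate 2 in 74 of the 99 and in 7 of the 26. The ranges of D3 overlapped, from 0.44 to 4.49 in the 99 genes and from -0.01 to 1.70 in the members. The groups of genes were formed with these data in view, and the difference between them was not tested.

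The identifiers give little more. In the assembly, 24 of the 26 members are the only gene of their component in the table, while those of rank 9 and 26 share a component with another listed gene, so that reads could be split between near copies and their values are less certain. The member of rank 26 stood at 0.580, 1.46 and 2.88 CPM in DMSO libraries of 3 h and 0.807, 3.46 and 5.85 CPM in DAPT (edgeR: log2 fold change 1.25 with SE 0.42 and adjusted p = 0.0744). The deposited table holds no gene with a value of 0 in any library.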

How the data were processed

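Strand-specific mRNA libraries from 36 samples were sequenced on 3 lanes with 100 bp reads, per the labels, which also give trimming of adapters, polyA and splice leader sequences and removal of reads under quality 20 or 30 bp. RSEM, Bowtie2 and DESeq2 1.18.1 are named in the submitters' processing notes without their roles, and no source used here names the assembly. The authors deposited expected counts per gene (98.95% not whole, lowest 0.09). Counts were rounded for the tests, after which 186 values were 0. filterByExpr removed 157 genes, and edgeR 4.0.16 (R 4.3.3) with TMM factors fitted 6 group means. CPM levels are TMM-scaled unless stated, and standard errors follow from the F statistic. edgeR's script was tested on simulated data. Of 90 replicate pairs none agreed within counting noise (smallest mean squared difference 12.9 times the counting variance). Intervals from counting are not given, because the spread between replicates is larger. The identifiers printed are those of the member with the smallest p at 3 h and of the largest D0 minus D6 among the others. The members and lists were chosen with earlier results of these data known. Alternatives were other scalings, filters and pseudocounts, DESeq2 1.42.0, limma-voom (limma 3.58.1), a replicate block and left-out libraries.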

Additional observations from a re-analysis of the deposited data

Results flagged for a closer look

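In each group of 6, a library far from the other 5 was looked for in every member and in the members' summed CPM, 162 checks in all, of which 13 found one, where chance gives about 1 in 20, or 8.1. The checks share libraries and are not independent.

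DMSO 6 h replicate 4 stood apart in 4 members. It was at 46.9 CPM in TRINITY_DN19270_c0_g1, against 13.9 to 25.2 CPM, at 85.5 CPM in the member of abundance rank 3, against 26.4 to 42.1 CPM, and at 6.81 CPM in that of rank 20, against 2.85 to 4.14 CPM. In the member of rank 24 it was low, at 0.545 CPM against 2.40 to 2.85 CPM. Other DMSO libraries of 6 h stood apart in the member of rank 12, with replicate 2 at 11.5 CPM against 4.14 to 6.81 CPM, and in that of rank 23, with replicate 5 at 4.89 CPM against 2.93 to 3.61 CPM.

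DMSO 3 h replicate 6 was at 41.8 CPM in the member of rank 4, against 17.4 to 25.2 CPM, and at 5.92 CPM in that of rank 15, against 3.58 to 4.43 CPM. DMSO 3 h replicate 1 was at 3.33 CPM in the member of rank 20, against 1.99 to 2.42 CPM.

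Of the DAPT libraries, replicate 2 of 3 h was at 3.43 CPM in TRINITY_DN624_c0_g1, against 10.9 to 14.5 CPM. Replicate 2 of 6 h was at 9.24 CPM in the member of rank 13, against 5.25 to 6.56 CPM, and at 0.924 CPM in that of rank 26, against 3.28 to 4.05 CPM. Replicate 6 of 0 h was at 23.6 CPM in the member of rank 8, against 15.2 to 17.8 CPM.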

How the results depend on the processing

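The number of members called higher at 3 h was 6 in the fit reported and between 4 and 7 with RLE factors, library totals, limma-voom, other filters, the replicate block or the 3 h libraries alone. DESeq2 called 11, and 2 passed an adjusted p under 0.01. Leaving out replicates or single libraries gave 3 to 10, with 3 without replicate number 1 and 10 without DAPT 3 h replicate 2. In each of these fits 0 members were called lower. The log2 fold change of TRINITY_DN19270_c0_g1 stayed called, between 1.56 and 1.99 with replicates left out. That of TRINITY_DN624_c0_g1 ran from 0.28 to 0.59 and was called at 0.59 without replicate number 2 (edgeR adjusted p = 0.0269) and at 0.57 without DAPT 3 h replicate 2 (0.0238).

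Same-numbered DAPT and DMSO libraries of 3 h deviated together in 4 of 6 pairs (correlation over 0.1, range -0.27 to 0.42). Over all times 11 of 18 pairs did (range -0.58 to 0.53). The labels do not say that libraries of the same number are pairs, and the fit reported did not treat them as such. With the replicate block 7 members were called, the 6 among them, with log2 fold changes of 1.66 for TRINITY_DN19270_c0_g1 and 0.34 for TRINITY_DN624_c0_g1.

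The number of genes that meet the rule was 18 to 35 under other scalings, pseudocounts and minimum levels, and 22 to 89 with replicates or single libraries left out. Library totals without centring gave 23 genes, 14 of them among the 26. The median D3 of the genes chosen anew was 0.39 to 0.63 under other scalings and pseudocounts and 0.30 to 0.70 with replicates left out. Of the genes chosen anew, those with DAPT above DMSO in all libraries of 3 h numbered 2, but 4 with a pseudocount of 2 CPM and 4 to 9 without a replicate number, where fewer libraries of 3 h make the condition easier to meet. Leaving out 1 library of 0 h or 6 h changes only which genes are chosen, and gave 1 to 5, with 2 without DMSO 6 h replicate 4. The single libraries were left out after seeing the data. The cause of the other changes was not tested. Members under 5 CPM rest on few reads per library.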
